A study of Mus musculus with 6 samples.

Results

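Oxidative phosphorylation genes encoded in the nucleus were compared between cells labelled as long-term haematopoietic stem cells (LT-HSCs) with high and low reporter signal. They were taken from the deposited expression table by gene name: Nduf genes, Sdha to Sdhd, and genes whose names begin with Uqcr, Cox4 to Cox8 or Atp5. Of 107 rows with such a name, 8 whose names end in -ps were left out, which gave 99 genes of the 26776 in the table, and 94 of these had enough reads to be tested. The 99 genes were sorted by function into complex I (36 genes), complex II (4), complex III (8), complex IV (16), complex V (17), assembly factors (9) and copies annotated as processed pseudogenes (9).

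The cells, labelled LT-HSCs, came from bone marrow of Trim47+/eGFP mice. That genotype name gives an enhanced green fluorescent protein (eGFP) allele of Trim47, a ubiquitin ligase gene of the tripartite motif family, beside a wild-type allele. The cells were sorted into an eGFPhi and an eGFPlo population, each with 3 RNA-seq libraries made from poly-A RNA with a stranded kit. Both groups carry the reporter allele. Neither the age of the mice, nor the gate for LT-HSCs, nor the number of animals is given, and nothing in the labels ties the 3 libraries of a group to different animals or sorting runs. The p-values therefore describe the spread between libraries, which may be technical.

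Oxidative phosphorylation is the last stage of respiration in mitochondria. Complexes I and II pass electrons from NADH and succinate to ubiquinone, complex III passes them on to cytochrome c and complex IV to oxygen, while protons are pumped across the inner membrane at complexes I, III and IV and flow back through complex V, the ATP synthase. Most subunits are encoded in the nucleus and a few in mitochondrial DNA, and assembly factors that are not part of the finished enzymes help to join them. Quiescent haematopoietic stem cells are known to rely less on this route than the progenitors they give rise to.

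Library totals were 11221070, 26058391 and 19460211 counts in eGFPhi and 11706873, 14333582 and 18151852 counts in eGFPlo, so that 3 counts, the floor used for a gene without reads, stood for 0.115 to 0.267 CPM in a single library. Levels are CPM, which puts the libraries on one scale through TMM factors, and fold changes are eGFPhi over eGFPlo from an edgeR quasi-likelihood fit of all 18081 tested genes, called at a Benjamini-Hochberg adjusted p under 0.05. Trim47 itself averaged 23.7 ± 2.29 CPM in eGFPhi and 8.12 ± 0.818 CPM in eGFPlo (SD, n = 3 each; log2 fold change 1.54, SE 0.11, adjusted p = 1.69e-05), which checks the sort labels. Of 11 LT-HSC marker genes 10 rose and 0 fell, with summed levels of 2028 to 2239 CPM in eGFPhi and 944 to 981 CPM in eGFPlo. Of all tested genes 31.7% were called lower and 32.3% higher, the shares beside which this count and those that follow stand. Markers of other cells moved with the groups as well. All 10 granulocyte-monocyte progenitor markers fell (summed levels of 307 to 312 CPM in eGFPhi and 5337 to 5444 CPM in eGFPlo), with none at 0 in a whole group. In eGFPlo the myeloperoxidase gene Mpo and the neutrophil elastase gene Elane had the highest levels of these. All 10 B cell markers fell (404 to 416 CPM in eGFPhi and 3485 to 3570 CPM in eGFPlo), with Igll1 at 0 in every eGFPhi library. Of 10 erythroid markers 8 fell and 0 rose (96.0 to 105 CPM in eGFPhi and 185 to 189.5 CPM in eGFPlo), and of 10 T and NK cell markers, 6 of them tested, 5 fell and 0 rose (14.2 to 16.1 CPM in eGFPhi and 72.6 to 75.2 CPM in eGFPlo), with 5 at 0 in every eGFPhi library. Of 8 megakaryocyte markers, 7 of them tested, 6 rose and 1 fell (374 to 389.5 CPM in eGFPhi and 132 to 149 CPM in eGFPlo), with Gp6 at 0 in every eGFPhi library. All 12 mitosis genes fell (1191 to 1204 CPM in eGFPhi and 2939 to 2997 CPM in eGFPlo). In eGFPlo Mpo averaged 3885 CPM and the B cell marker Ighm 3026 CPM, so the LT-HSC label may not hold for all cells of that group. The part of these markers and cell types in the results below was not tested.

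Most oxidative phosphorylation genes were lower in eGFPhi, by a modest amount and across all 5 complexes. Of the 94 tested, 65 were lower and 6 higher, where 31.7% of all tested genes were called lower and 32.3% higher (64.0% in either direction), so 69.1% of the tested oxidative phosphorylation genes were called lower and 6.38% higher. Every eGFPhi library lay below every eGFPlo library for 70 of them and above for 6, against a background of 34.6% below and 35.2% above. At least a 1.5-fold change was reached by 27 of the genes called lower and 4 of those called higher (background 16.7% and 20.4%). The median log2 fold change over the 94 was -0.40, with a range of -1.82 to 1.96, beside a median of 0.00 and an interquartile range of -0.40 to 0.49 for all tested genes. Of the 94, Cox4i2, Atp5g2 and the copy Uqcrh-ps1 reached the limit of the filter on low counts in every library of 1 group only, which can favour a difference. Over the other 91, 64 were lower and 5 higher, 26 and 3 of them by at least 1.5-fold, and the log2 fold changes ended at 0.72. With a biological coefficient of variation of 0.2 assumed in place of the 0.0941 estimated from these libraries, 28 were called lower and 4 higher, where 2982 of all tested genes were lower and 3637 higher. In bulk libraries fewer cells of a type and less RNA per cell cannot be told apart. The fold change had only a weak relation to level (Spearman rho 0.19 with mean CPM) and to exon length (0.079) across the 87 tested protein-coding genes, which are not independent replicates.

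**Figure D1:**
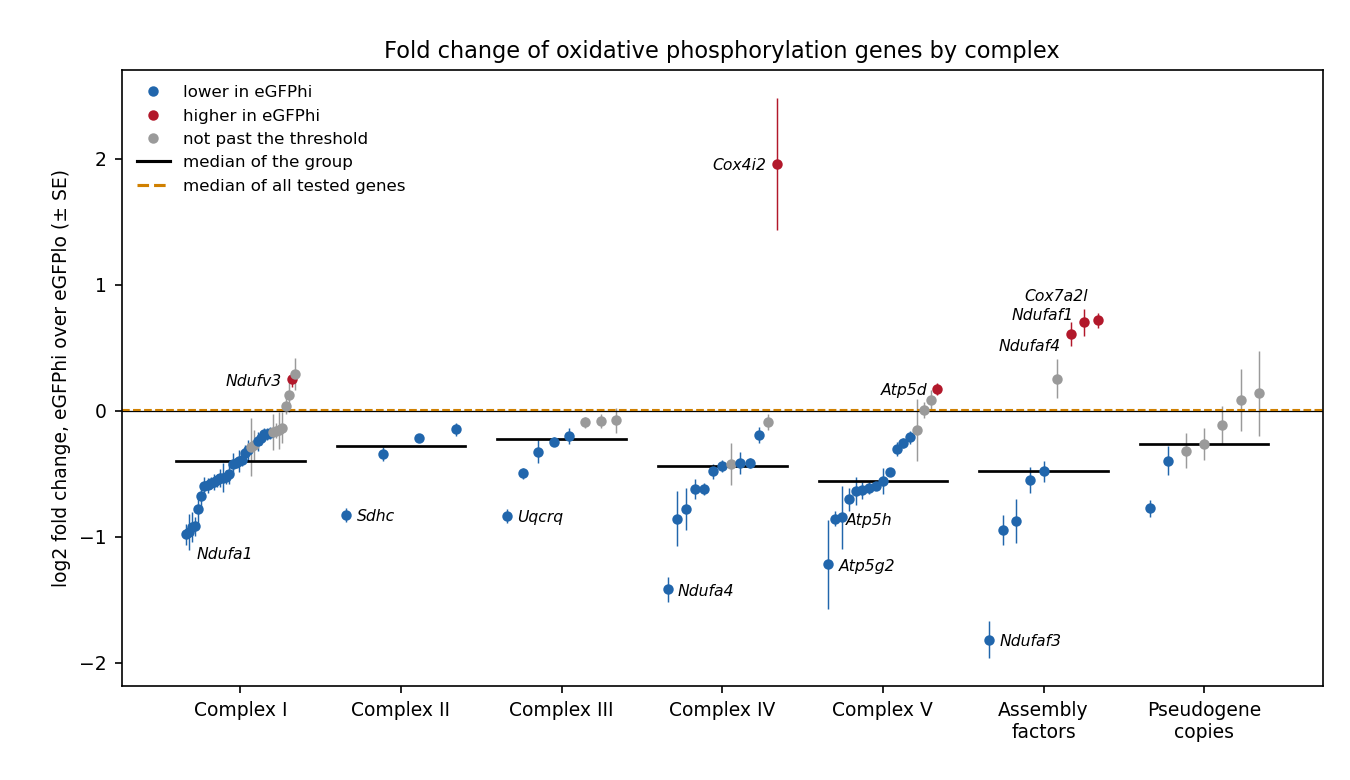
The log2 fold change (eGFPhi over eGFPlo, y axis) of each of the 94 tested oxidative phosphorylation genes, grouped by complex on the x axis, with bars for the SE, a black line for each group's median and a dashed line for the median of all tested genes. The medians of all 5 complexes lie below 0, from -0.22 in complex III to -0.56 in complex V, and the 6 genes called higher, in red, lie in complexes I, IV and V and among the assembly factors.

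The genes called lower were spread over all complexes. In complex I, 26 of 36 tested genes were lower and 1 higher (median log2 fold change -0.39). All 4 genes of complex II were lower (-0.28), as were 5 of 8 in complex III with 0 higher (-0.22). In complex IV 10 of 13 tested genes were lower and 1 higher (-0.44), and in complex V 13 of 17 were lower and 1 higher (-0.56). Without Cox4i2, 10 of 12 in complex IV were lower and 0 higher (-0.46), and without Atp5g2, 12 of 16 in complex V were lower and 1 higher (-0.52). Over the 11 complex V genes with under 10% of their 50-base words in transcripts of another gene, a limit chosen after seeing the data, the median was -0.30. The 9 assembly factors had mixed calls, with 5 lower and 3 higher (median -0.48). Their share called higher, 33.3%, was near the 32.3% of all tested genes. Of the 7 tested pseudogene copies 2 were lower and 0 higher (-0.27). No test of a difference between complexes was made.

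Summed over its members, each complex was lower in all 3 eGFPhi libraries. Complex I summed to 1004, 999 and 976 CPM in the eGFPhi libraries, against 1268, 1257 and 1289 CPM in the eGFPlo libraries, a log2 ratio of means of -0.36. Complex II summed to 289.9, 283 and 295 CPM in the eGFPhi libraries, against 357, 357 and 353 CPM in the eGFPlo libraries (-0.30), and complex III to 358, 374 and 358 CPM in the eGFPhi libraries, against 444, 436 and 441 CPM in the eGFPlo libraries (-0.28). The groups did not overlap for any of these. For complex IV the sums were 394, 388 and 408 CPM in the eGFPhi libraries, against 523, 560.04 and 543 CPM in the eGFPlo libraries (-0.45). For complex V they were 1154, 1119 and 1134 CPM in the eGFPhi libraries, against 1545, 1549 and 1553 CPM in the eGFPlo libraries (-0.45). The assembly factors went the other way, with 177, 177 and 186 CPM in the eGFPhi libraries, against 156, 146 and 161 CPM in the eGFPlo libraries (0.23). That sum is dominated by Cox7a2l, and the 8 complex I assembly factors alone gave 84.02, 80.4 and 84.8 CPM in the eGFPhi libraries, against 95.7, 91.2 and 98.2 CPM in the eGFPlo libraries (-0.19). Few genes weigh heavily in other sums too. Sdha averaged 185 of the 289 CPM of complex II in eGFPhi and 216 of 356 CPM in eGFPlo. Atp5a1 and Atp5b averaged 317 and 273 of the 1136 CPM of complex V in eGFPhi and 444 and 412 of 1549 CPM in eGFPlo.

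**Figure D2:**
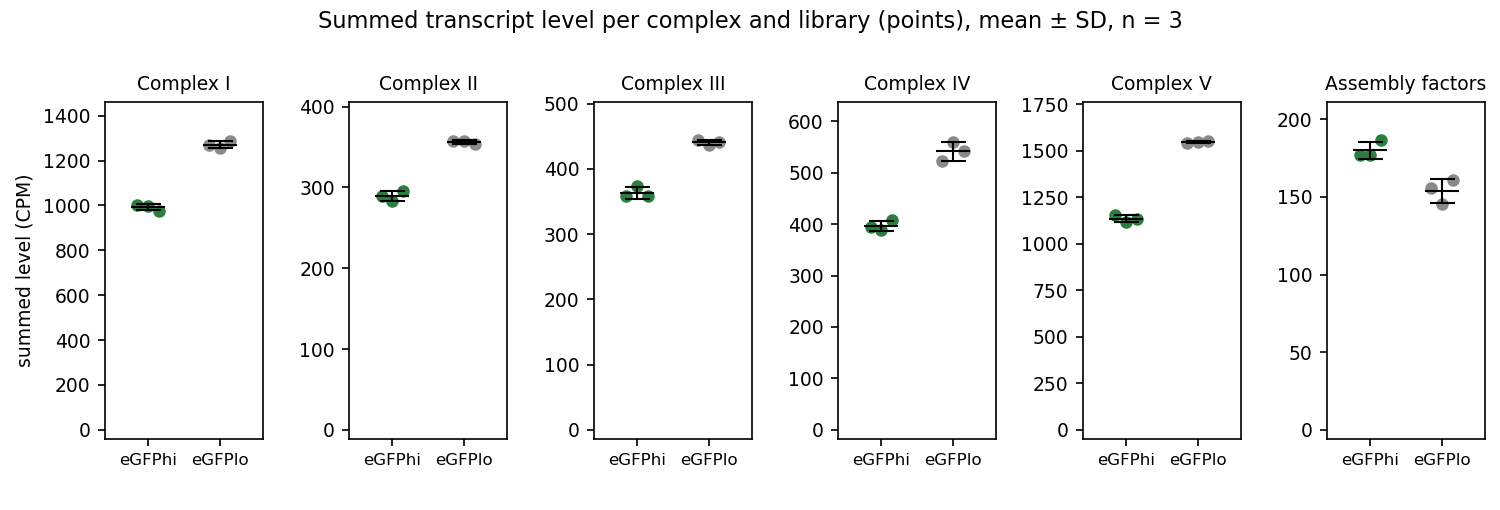
Summed level (CPM, y axis of each panel, starting just below 0) of the genes of complexes I to V and of the assembly factors in each library (points), with the mean and SD of 3 libraries per group. The eGFPhi points lie below the eGFPlo points in the panels of complexes I to V and above them in the panel of the assembly factors.

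Promoters of respiratory genes are known for sites of nuclear respiratory factor 1 (NRF1) and of GABPA, the factor also called NRF2, and some hold sites of YY1 or SP1. RefSeq promoter windows (build GRCm38.p6, 250 bases before to 50 bases after a gene's start) were matched by symbol for 75 of the 99 genes, in 80 windows. They were searched on both strands for the letters GCGCA, any base and GCGC in a row (NRF1), CCGGAAG (GABPA), AAGATGGC (YY1) and GGGCGGG (SP1), and in 0 of the 80 windows did matches of different motifs overlap. The NRF1 letters stood in 25% of the oxidative phosphorylation windows, in 9.49% of the 13568 windows of all tested genes and in 4.60% of all 32851 windows. Shares for GABPA were 23.8%, 16.7% and 8.86%, and for YY1 13.8%, 4.25% and 2.75%. SP1 letters were in 35% of the oxidative phosphorylation windows, below the 44.6% of tested genes and above the 25.6% of all windows. The NRF1 share was 25.9% over the 54 windows of genes called lower. It was 25% over the 20 windows of genes not called, with the untested Cox7a1 and Cox8b among them. Over the 6 windows of genes called higher it was 16.7%, where 1 window held it. A match is a description of letters only, and no binding was measured.

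Both the NRF1 and the GABPA letters stood in the windows of 4 genes, and either stood in those of 2 genes called higher. These 6 are printed to show where the letters lie, as the 200 bases before the start, 5′ to 3′ on the strand of the gene, with each match to the NRF1 or GABPA letters on either strand in capitals.
Atp5h, chr11:115419920-115420119, minus strand: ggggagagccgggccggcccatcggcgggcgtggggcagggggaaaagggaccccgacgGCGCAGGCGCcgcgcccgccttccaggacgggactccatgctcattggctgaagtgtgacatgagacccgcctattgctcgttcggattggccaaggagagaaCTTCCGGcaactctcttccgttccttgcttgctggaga
Atp5k, chr5:108434400-108434599, minus strand: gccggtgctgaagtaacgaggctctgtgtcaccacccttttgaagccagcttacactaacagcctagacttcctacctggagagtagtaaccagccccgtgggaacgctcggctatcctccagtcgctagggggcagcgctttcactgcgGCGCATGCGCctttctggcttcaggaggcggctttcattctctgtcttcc
Cox6a1, chr5:115348959-115349158, minus strand: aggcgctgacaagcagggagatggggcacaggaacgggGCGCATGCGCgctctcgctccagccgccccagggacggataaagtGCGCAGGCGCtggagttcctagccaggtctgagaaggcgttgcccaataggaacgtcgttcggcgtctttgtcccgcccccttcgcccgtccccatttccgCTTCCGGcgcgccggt
Sdhd, chr9:50603850-50604049, minus strand: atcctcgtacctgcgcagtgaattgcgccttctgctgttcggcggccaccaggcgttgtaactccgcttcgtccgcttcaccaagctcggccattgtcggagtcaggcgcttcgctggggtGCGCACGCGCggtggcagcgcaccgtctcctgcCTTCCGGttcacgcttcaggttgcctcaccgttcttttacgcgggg
Ndufaf4, chr4:24897883-24898082, plus strand: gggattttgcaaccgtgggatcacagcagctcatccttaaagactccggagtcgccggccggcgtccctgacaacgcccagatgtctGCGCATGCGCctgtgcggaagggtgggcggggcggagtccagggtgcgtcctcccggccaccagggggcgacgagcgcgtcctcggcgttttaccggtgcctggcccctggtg
Ndufaf1, chr2:119662835-119663034, minus strand: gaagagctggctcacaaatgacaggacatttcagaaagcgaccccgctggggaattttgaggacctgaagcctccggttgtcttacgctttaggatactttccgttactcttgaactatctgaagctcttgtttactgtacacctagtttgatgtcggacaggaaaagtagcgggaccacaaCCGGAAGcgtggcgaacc
In Atp5h the NRF1 match begins at position -141 and the GABPA match at -38 from the start. In Cox6a1 the first of the NRF1 matches begins at -162 and the GABPA match at -16. Sdhd holds them at -79 and -46. In Atp5k the NRF1 match begins at -50, and its GABPA letters lie outside the printed stretch. The 4 genes with both were called lower in eGFPhi, as were 69.1% of all tested oxidative phosphorylation genes. Ndufaf4, with an NRF1 match at -113, and Ndufaf1, with a GABPA match at -18, were printed because they were called higher. The printed genes therefore cannot show a link between the letters and the direction, which was not tested.

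**Figure D3:**
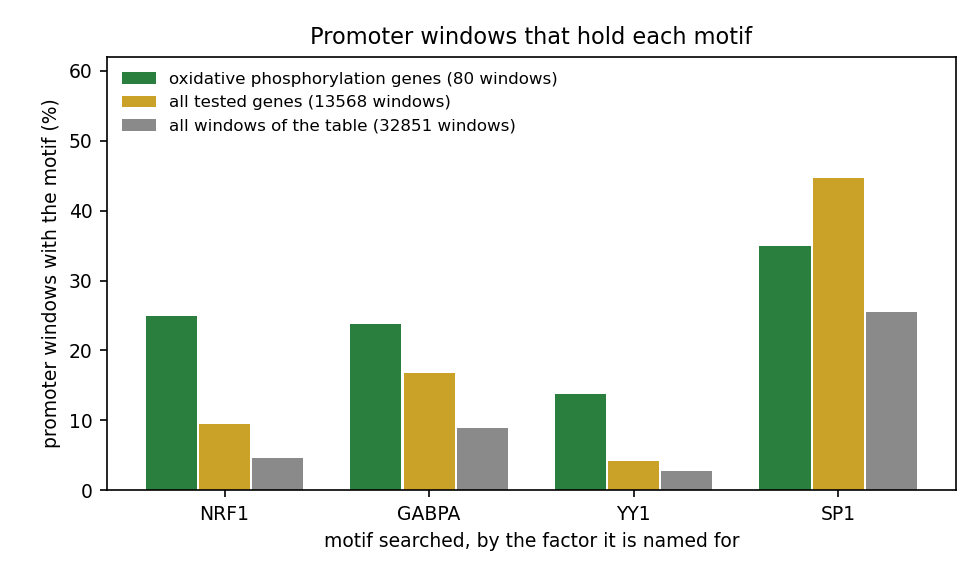
Share of promoter windows (%, y axis) that hold the letters of each motif (x axis), for oxidative phosphorylation genes, all tested genes and all windows of the RefSeq table. The NRF1 share is 25% for oxidative phosphorylation genes against 9.49% for tested genes, and SP1 is the motif for which tested genes have the higher share.

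In complex I, which takes electrons from NADH, 4 of the 6 core subunits described here fell in eGFPhi. These subunits are part of the core that carries out the reaction. Ndufv2, an iron-sulfur subunit of the arm that takes up NADH, had 50.02, 48.1 and 52.8 CPM in the eGFPhi libraries, against 77.4, 72.8 and 73.9 CPM in the eGFPlo libraries (log2 fold change -0.57, SE 0.05, adjusted p = 4.53e-05). Its partner Ndufv1, which binds NADH, had 32.04, 29.5 and 29.7 CPM in the eGFPhi libraries, against 44.5, 45.4 and 43.5 CPM in the eGFPlo libraries (log2 fold change -0.55, SE 0.05, adjusted p = 7.75e-05). Neither gene overlapped between the groups. Ndufs1, the largest iron-sulfur subunit, had 58.2, 58.7 and 53.7 CPM in the eGFPhi libraries, against 76.5, 83.4 and 85.2 CPM in the eGFPlo libraries and was 1.44-fold lower (log2 fold change -0.53, SE 0.06, adjusted p = 1.38e-04). Among the core subunits Ndufs8 was also lower (-0.33), while Ndufs3 and Ndufs7 did not pass the threshold (log2 fold changes of -0.29 and -0.16). Ndufs3 was poorly measured, at 1.45 CPM in eGFPhi and 1.74 CPM in eGFPlo. Its pseudogene copy held more reads, 7.90 CPM in eGFPhi and 10.3 CPM in eGFPlo. The log2 ratio of mean CPM was -0.26 for Ndufs3 alone and -0.36 with the copy added. Ndufs7 passed it with RLE factors (adjusted p = 0.0480).

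Of the 29 accessory subunits of complex I, which surround the core, 21 were lower and 1 higher, and 8 of these fell at least 1.5-fold. Ndufa1 (ENSMUSG00000016427, chrX:37187588-37191163, minus strand), a small subunit of the membrane arm, had 9.17, 9.07 and 10.02 CPM in the eGFPhi libraries, against 19.6, 18.1 and 18.1 CPM in the eGFPlo libraries. The eGFPhi values were close to one another and far below the others, a 1.97-fold fall (log2 fold change -0.98, SE 0.09, adjusted p = 4.59e-05). Ndufc2, another small membrane subunit, had 20.6, 19.3 and 16.9 CPM in the eGFPhi libraries, against 35.2, 35.5 and 36.1 CPM in the eGFPlo libraries (log2 fold change -0.92, SE 0.08, adjusted p = 4.23e-05). Ndufa2, a subunit of the NADH arm, had 23.2, 25.7 and 24.8 CPM in the eGFPhi libraries, against 35.9, 38.2 and 36.99 CPM in the eGFPlo libraries (log2 fold change -0.59, SE 0.06, adjusted p = 1.01e-04). Its groups were apart as well. Ndufb5, of the membrane arm, had 17.9, 18.4 and 19.8 CPM in the eGFPhi libraries, against 27.5, 28.1 and 27.6 CPM in the eGFPlo libraries (log2 fold change -0.56, SE 0.06, adjusted p = 1.93e-04). The accessory subunits spread over a wide range, and Ndufs5, Ndufb3, Ndufab1 and Ndufc1 also fell, with log2 fold changes of -0.96, -0.92, -0.78 and -0.68. Of these Ndufab1 encodes the mitochondrial acyl carrier protein, which also serves fatty acid synthesis.

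Ndufv3 (ENSMUSG00000024038, chr17:31520115-31531331, plus strand), an accessory subunit of the NADH arm, was the exception in complex I. It had 47.9, 46.1 and 48.3 CPM in the eGFPhi libraries, against 38.7, 37.7 and 42.9 CPM in the eGFPlo libraries. The lowest eGFPhi value was above the highest eGFPlo value, by a small margin (1.19-fold higher; log2 fold change 0.25, SE 0.06, adjusted p = 0.00765). The neighbouring subunits Ndufv1 and Ndufv2 of the same arm were lower in the same libraries. Ndufa11, Ndufa7 and Ndufa8 had log2 fold changes of 0.29, 0.12 and 0.04 that did not pass the threshold. Without eGFPhi replicate 1, Ndufa11 passed it (log2 fold change 0.40, adjusted p = 0.0181).

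Complex II links the tricarboxylic acid cycle to the chain, and all 4 of its subunits were called lower, by unequal amounts. Sdhc (ENSMUSG00000058076, chr1:171127165-171150603, minus strand), a membrane anchor that helps form the ubiquinone site, had 28.5, 27.1 and 29.8 CPM in the eGFPhi libraries, against 52.8, 48.99 and 49.7 CPM in the eGFPlo libraries. The highest eGFPhi value was far below the lowest eGFPlo value, a 1.77-fold fall (log2 fold change -0.83, SE 0.06, adjusted p = 1.47e-05). Sdhd, the other anchor, had 38.1, 40.2 and 40.3 CPM in the eGFPhi libraries, against 52.1, 47.5 and 51.1 CPM in the eGFPlo libraries (log2 fold change -0.34, SE 0.05, adjusted p = 9.34e-04). Sdha, the flavin subunit that oxidises succinate, was the most abundant of the 4 and had 189, 179 and 188 CPM in the eGFPhi libraries, against 214, 219.7 and 213 CPM in the eGFPlo libraries (log2 fold change -0.22, SE 0.03, adjusted p = 5.17e-04). The groups were apart for both, though by less than for Sdhc. The iron-sulfur subunit Sdhb had 34.3, 36.5 and 37.1 CPM in the eGFPhi libraries, against 38.6, 41.3 and 39.8 CPM in the eGFPlo libraries (log2 fold change -0.15, SE 0.05, adjusted p = 0.0455). Its call depended on the libraries and on the method. Leaving out any of the 3 eGFPhi libraries or eGFPlo replicate 2 or 3 ended it, with adjusted p of 0.0662 to 0.133. So did the replicate block (0.0558), upper-quartile factors (0.0821), DESeq2 (0.172), no filter on low counts (0.111) and a filter of 5 CPM in 3 libraries (0.0634).

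In complex III, which hands electrons to cytochrome c, 5 of the 8 genes that the naming rule takes in fell and 3 did not pass the threshold. The cytochrome c1 gene Cyc1 lies outside the rule and was lower as well. It averaged 16.5 ± 0.259 CPM in eGFPhi and 24.2 ± 2.41 CPM in eGFPlo (SD, n = 3 each; log2 fold change -0.56, SE 0.09, adjusted p = 8.65e-04). Uqcrq (ENSMUSG00000044894, chr11:53427922-53430831, minus strand), a small subunit of the membrane part, had 31.4, 35.8 and 33.2 CPM in the eGFPhi libraries, against 60.5, 58.01 and 61.1 CPM in the eGFPlo libraries. It was the one gene of the complex past 1.5-fold (1.78-fold lower; log2 fold change -0.83, SE 0.06, adjusted p = 1.49e-05), and its groups were far apart. Uqcrfs1, the Rieske iron-sulfur protein that hands electrons on to cytochrome c1, had 37.6, 38.2 and 40.1 CPM in the eGFPhi libraries, against 53.3, 54.7 and 55.7 CPM in the eGFPlo libraries (log2 fold change -0.50, SE 0.05, adjusted p = 6.62e-05). Uqcrc1, a large core protein of the matrix side, had 84.6, 88.4 and 87.2 CPM in the eGFPhi libraries, against 103, 105 and 100.4 CPM in the eGFPlo libraries (log2 fold change -0.24, SE 0.03, adjusted p = 5.65e-04). Both were lower in every eGFPhi library. The small subunit Uqcr11 had 15.8, 17.1 and 14.5 CPM in the eGFPhi libraries, against 20.8, 18.5 and 20.2 CPM in the eGFPlo libraries (log2 fold change -0.32, SE 0.09, adjusted p = 0.0159), and it did not pass without eGFPhi replicate 3 (adjusted p = 0.0551). Uqcrb was also called lower (-0.20). That call was lost without eGFPhi replicate 1 or 3 or eGFPlo replicate 2 (adjusted p of 0.0514, 0.0920 and 0.0687) and with DESeq2 (0.0637). Uqcrc2, Uqcrh and Uqcr10 did not pass, with log2 fold changes of -0.09, -0.08 and -0.08.

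In complex IV, which reduces oxygen, 10 of the 11 ubiquitous subunits were lower, with a median log2 fold change of -0.48. Ndufa4 (ENSMUSG00000029632, chr6:11900292-11907497, minus strand), named for complex I but now counted to complex IV, had 10.2, 11.7 and 10.99 CPM in the eGFPhi libraries, against 25.96, 32.1 and 30.3 CPM in the eGFPlo libraries. The eGFPhi values were all less than the lowest eGFPlo value by a wide gap (2.67-fold lower; log2 fold change -1.42, SE 0.10, adjusted p = 1.61e-05), the largest fall among the tested subunits of the 5 complexes. Cox7b, a small membrane subunit, had 56.6, 51.8 and 53.1 CPM in the eGFPhi libraries, against 83.01, 84.9 and 79.4 CPM in the eGFPlo libraries (log2 fold change -0.62, SE 0.05, adjusted p = 2.63e-05). Cox5b, a zinc-binding subunit of the matrix side, had 45.7, 48.3 and 49.99 CPM in the eGFPhi libraries, against 63.9, 65.2 and 65.9 CPM in the eGFPlo libraries (log2 fold change -0.44, SE 0.05, adjusted p = 1.30e-04). No library of either gene crossed into the other group. Cox8a, another small membrane subunit, had 50.8, 50.9 and 52.6 CPM in the eGFPhi libraries, against 68.02, 69.3 and 68.1 CPM in the eGFPlo libraries (log2 fold change -0.41, SE 0.04, adjusted p = 6.08e-05). Cox5a and Cox7c fell too (-0.78 and -0.86), with 1 eGFPlo library standing apart in each. Cox5a had 15.1, 17.1 and 19.5 CPM in the eGFPhi libraries, against 26.6, 37.7 and 25.03 CPM in the eGFPlo libraries. Cox7c had 12.3, 11.99 and 12.8 CPM in the eGFPhi libraries, against 17.8, 17.8 and 31.01 CPM in the eGFPlo libraries. In Cox5a eGFPlo replicate 2 and in Cox7c eGFPlo replicate 3 was high, and both calls stayed without it. Cox6c was the ubiquitous subunit that did not pass (-0.09). Its log2 ratio of mean CPM was -0.27 with the reads of its pseudogene copy Cox6c2 added, so its level depends on how shared reads were counted.

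Several complex IV subunits exist as a common and a tissue isoform, and reads per kilobase of exon were used to compare them. Cox4i1, the common form of subunit 4, had 76.7, 66.8 and 74.03 CPM in the eGFPhi libraries, against 82.2, 87.01 and 78.1 CPM in the eGFPlo libraries (log2 fold change -0.19, SE 0.06, adjusted p = 0.0334). Its groups nearly met, and the call was lost without eGFPlo replicate 1 or 2 or eGFPhi replicate 2 or 3 (adjusted p of 0.0529 to 0.1003). It was also lost with the replicate block (0.0689), upper-quartile factors (0.0600) and a filter of 5 CPM in 3 libraries (0.0530). Cox4i2 (ENSMUSG00000009876, chr2:152754173-152765037, plus strand), the isoform known from lung and from cells at low oxygen, had 16, 37 and 37 counts in the eGFPhi libraries, against 0, 8 and 10 counts in the eGFPlo libraries. That was 1.42, 1.42 and 1.901 CPM in the eGFPhi libraries, against 0, 0.559 and 0.554 CPM in the eGFPlo libraries, with every eGFPhi library higher (log2 fold change 1.96, SE 0.52, adjusted p = 0.0125). It passed the filter on low counts only through the eGFPhi libraries, so a difference was built into its being tested, and per kilobase it made up 3.52 to 4.81% of both subunit 4 transcripts in eGFPhi and 0 to 1.38% in eGFPlo.

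Subunits 6b, 6a, 7a and 8 have tissue isoforms as well. Cox6b1, the common form of subunit 6b, had 31.2, 35.5 and 33.4 CPM in the eGFPhi libraries, against 44.6, 48.1 and 47.3 CPM in the eGFPlo libraries (log2 fold change -0.48, SE 0.06, adjusted p = 3.55e-04). Its testis isoform Cox6b2 had 6.32, 4.303 and 4.83 CPM in the eGFPhi libraries, against 5.997, 7.199 and 7.03 CPM in the eGFPlo libraries (log2 fold change -0.42, SE 0.17, adjusted p = 0.0568), a difference that did not pass the threshold but did so with limma-voom and without eGFPhi replicate 1 (adjusted p = 0.0143). Per kilobase Cox6b2 made up 7.19 to 11.5% of the pair in eGFPhi and 7.91 to 8.73% in eGFPlo, ranges that overlap. Cox6a1 had 19.4, 22.9 and 23.8 CPM in the eGFPhi libraries, against 28.6, 30.6 and 29.4 CPM in the eGFPlo libraries and was lower (log2 fold change -0.41, SE 0.08, adjusted p = 0.00361). Cox7a2, the common form of subunit 7a, had 14.5, 15.1 and 13.4 CPM in the eGFPhi libraries, against 21.3, 21.9 and 22.7 CPM in the eGFPlo libraries (log2 fold change -0.62, SE 0.08, adjusted p = 2.94e-04). The heart and muscle isoform Cox7a1 had 13 counts, all in eGFPlo replicate 3, and none in eGFPhi, which makes it at least 5.58-fold lower against a floor of 3 counts over the group but rests on 1 library. Cox8b had 15 counts in eGFPhi, 12 of them in replicate 2, and none in eGFPlo, at least 3.88-fold higher against the same floor, and Ndufa4l2 had 1 count in all, so neither of these nor Cox7a1 was tested.

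In complex V, which makes ATP, 8 genes fell at least 1.5-fold, or 7 without Atp5g2, whose fall the filter on low counts may have favoured. The 5 genes of the F1 head did not move together. Atp5b (ENSMUSG00000025393, chr10:128083273-128090391, plus strand), the catalytic beta subunit, had 275, 272 and 272 CPM in the eGFPhi libraries, against 396, 418 and 422 CPM in the eGFPlo libraries. The 3 eGFPhi values were nearly equal and all below the eGFPlo values (log2 fold change -0.59, SE 0.03, adjusted p = 2.21e-06). Atp5a1, the alpha subunit, had 309, 316 and 327 CPM in the eGFPhi libraries, against 435, 443 and 453 CPM in the eGFPlo libraries (log2 fold change -0.48, SE 0.03, adjusted p = 5.69e-06). Atp5c1, the gamma subunit of the rotating shaft, had 102, 99.5 and 103 CPM in the eGFPhi libraries, against 116, 121 and 126 CPM in the eGFPlo libraries (log2 fold change -0.26, SE 0.04, adjusted p = 9.46e-04). Both were lower in every eGFPhi library. Atp5d (ENSMUSG00000003072, chr10:80138632-80145818, plus strand), the delta subunit of the same shaft, was higher in every eGFPhi library instead. It had 69.2, 70.8 and 66.5 CPM in the eGFPhi libraries, against 59.97, 58.8 and 63.9 CPM in the eGFPlo libraries (log2 fold change 0.18, SE 0.05, adjusted p = 0.0134). Atp5e, the epsilon subunit, did not pass the threshold (0.09).

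The stalk that holds the head to the membrane fell in 3 of its 4 genes. Atp5h (ENSMUSG00000034566, chr11:115415689-115419962, minus strand), which encodes subunit d, had 21.3, 19.3 and 20.5 CPM in the eGFPhi libraries, against 35.9, 37.6 and 36.7 CPM in the eGFPlo libraries (log2 fold change -0.86, SE 0.06, adjusted p = 1.53e-05). Atp5pb, which encodes subunit b, had 64.2, 68.2 and 66.7 CPM in the eGFPhi libraries, against 108, 97.1 and 100.1 CPM in the eGFPlo libraries (log2 fold change -0.61, SE 0.05, adjusted p = 2.80e-05). Neither gene overlapped between the groups. Atp5o, which encodes the oligomycin sensitivity conferring protein at the top of the stalk, had 33.3, 27.8 and 33.1 CPM in the eGFPhi libraries, against 53.97, 52.3 and 46.7 CPM in the eGFPlo libraries (log2 fold change -0.70, SE 0.09, adjusted p = 3.07e-04). The fourth gene, Atp5j, had 78.1, 41.3 and 39.5 CPM in the eGFPhi libraries, against 64.1, 52.6 and 57.1 CPM in the eGFPlo libraries, with eGFPhi replicate 1 above every other library. It did not pass the threshold (log2 fold change -0.15, SE 0.25, adjusted p = 0.616), and without that library it did (log2 fold change -0.51, adjusted p = 0.00305). Its exons overlap those of Gabpa on the opposite strand. Atp5k, a membrane subunit of the synthase dimer, had 21.9, 22.3 and 22.3 CPM in the eGFPhi libraries, against 37.2, 32.1 and 33.8 CPM in the eGFPlo libraries (log2 fold change -0.63, SE 0.07, adjusted p = 1.45e-04).

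The c ring, the rotor in the membrane, is made from a single protein sequence that 3 genes encode with different import signals. Atp5g3, the most abundant of the 3 when reads of pseudogene copies are left out, had 36.8, 38.7 and 36.8 CPM in the eGFPhi libraries, against 45.1, 42.4 and 42.6 CPM in the eGFPlo libraries (log2 fold change -0.21, SE 0.05, adjusted p = 0.0078). Atp5g1 had 1.42, 2.84 and 3.19 CPM in the eGFPhi libraries, against 4.63, 4.33 and 4.98 CPM in the eGFPlo libraries (log2 fold change -0.85, SE 0.25, adjusted p = 0.019). Atp5g2 had 0.8900, 1.15 and 0.411 CPM in the eGFPhi libraries, against 1.63, 1.75 and 2.38 CPM in the eGFPlo libraries (log2 fold change -1.22, SE 0.36, adjusted p = 0.0183). All 3 were lower in every eGFPhi library, though the calls of Atp5g1 and Atp5g2 were lost without eGFPlo replicate 3 (adjusted p of 0.0583 and 0.0719). Atp5g2 reached the limit of the filter on low counts in every eGFPlo library but not in every eGFPhi library. Per kilobase Atp5g3 made up 93.3 to 95.4% of the 3 genes' level in eGFPhi and 88.9 to 91.5% in eGFPlo. Atp5g1 and Atp5g2 have pseudogene copies that held more reads than the genes themselves. With those reads added to their gene, Atp5g3 made up 37.0 to 38.4% in eGFPhi and 38.6 to 41.3% in eGFPlo and Atp5g2 56.1 to 58.0% in eGFPhi and 49.0 to 52.1% in eGFPlo, so which gene supplies most c ring transcripts cannot be read from these counts.

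**Figure D4:**
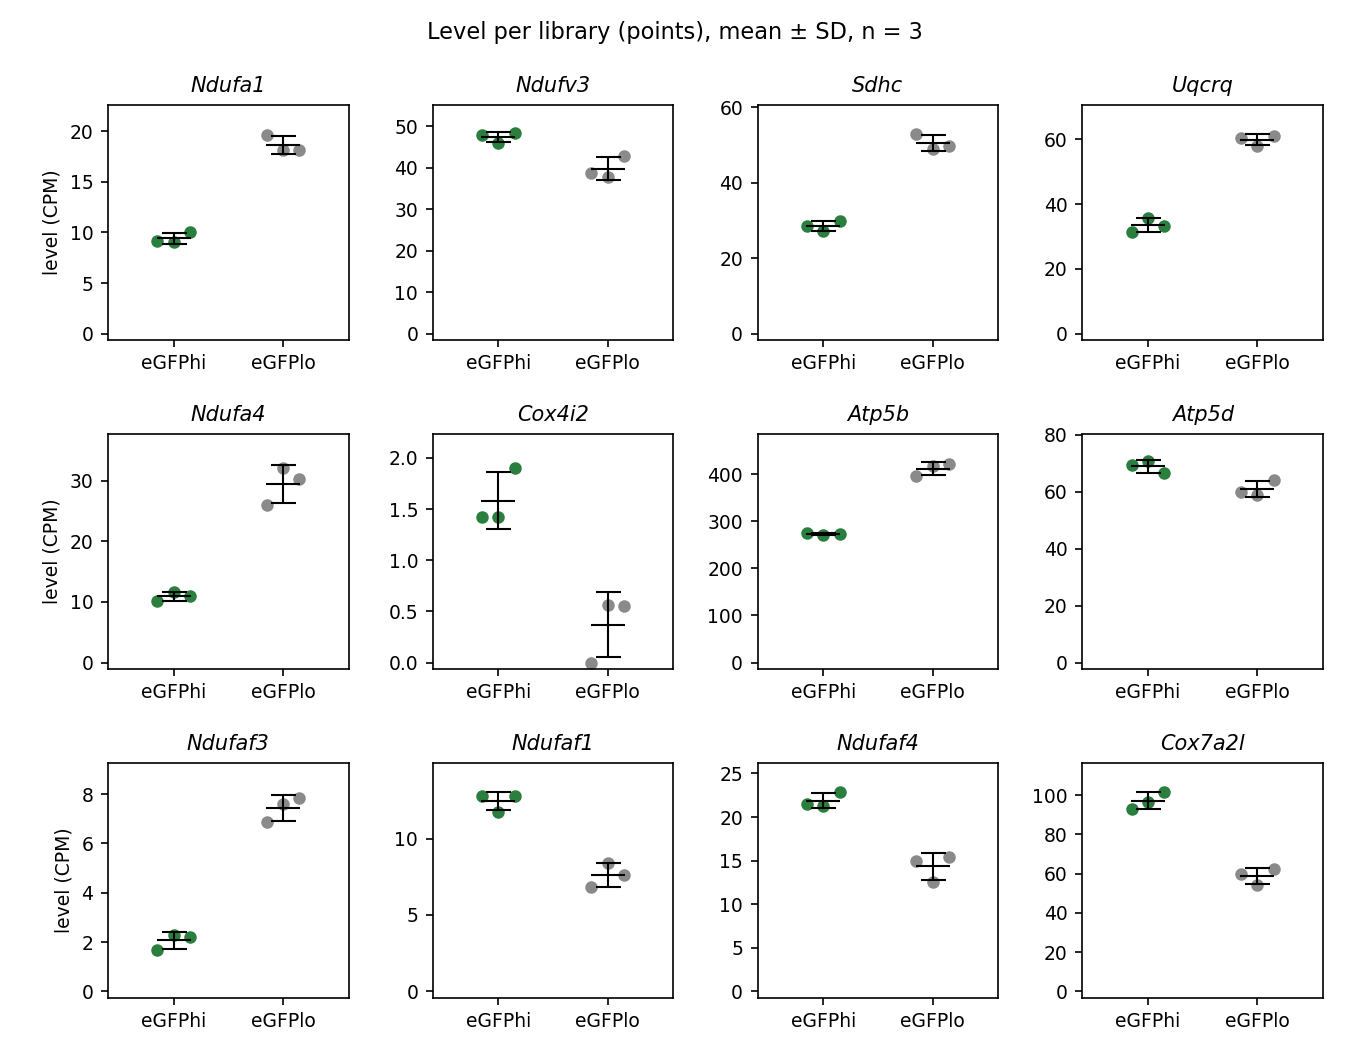
Level (CPM, y axis, starting just below 0) of 12 oxidative phosphorylation genes in each library (points), with the mean and SD of 3 libraries in eGFPhi and in eGFPlo. The 12 were picked from genes called lower or higher, so groups that do not overlap were to be found in every panel. Ndufv3, Cox4i2, Atp5d, Ndufaf1, Ndufaf4 and Cox7a2l are the panels in which eGFPhi is higher. Cox4i2 passed the filter on low counts only through the eGFPhi libraries.

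Assembly factors held both the largest fall and 3 of the 6 rises among the tested genes. The rises made up 33.3% of the 9 assembly factors, near the 32.3% of all tested genes called higher. Ndufaf3 (ENSMUSG00000070283, chr9:108565537-108567434, minus strand), an early complex I assembly factor, had 1.69, 2.31 and 2.21 CPM in the eGFPhi libraries, against 6.85, 7.62 and 7.86 CPM in the eGFPlo libraries. Every eGFPhi value was far below the lowest eGFPlo value (2.07 ± 0.3304 CPM in eGFPhi and 7.44 ± 0.527 CPM in eGFPlo, SD, n = 3 each), a 3.52-fold fall (log2 fold change -1.82, SE 0.15, adjusted p = 3.35e-05). Ndufaf4 (ENSMUSG00000028261, chr4:24898083-24905001, plus strand), which is known to bind Ndufaf3 in the same early intermediate, had 21.4, 21.3 and 22.9 CPM in the eGFPhi libraries, against 14.99, 12.6 and 15.4 CPM in the eGFPlo libraries. Here every eGFPhi library was higher, a 1.53-fold rise (log2 fold change 0.61, SE 0.10, adjusted p = 9.22e-04), so these partners moved in opposite directions. Ndufaf1 (ENSMUSG00000027305, chr2:119655446-119662827, minus strand), a factor of the intermediate that builds the membrane arm, had 12.8, 11.8 and 12.8 CPM in the eGFPhi libraries, against 6.85, 8.39 and 7.59 CPM in the eGFPlo libraries and was 1.63-fold higher (log2 fold change 0.70, SE 0.11, adjusted p = 7.57e-04).

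Ndufaf8, known in human cells as the partner of the arginine hydroxylase Ndufaf5, had 8.19, 6.99 and 6.32 CPM in the eGFPhi libraries, against 14.4, 12.9 and 13.8 CPM in the eGFPlo libraries (log2 fold change -0.95, SE 0.12, adjusted p = 2.83e-04). Ndufaf5 itself did not pass the threshold (0.25), and it did so as higher without eGFPlo replicate 1 (log2 fold change 0.41, adjusted p = 0.0334). Ndufaf6, Ndufaf7 and Ndufaf2 were lower, with log2 fold changes of -0.87, -0.55 and -0.48, and the exons of Ndufaf2 overlap 1955 bases of another gene on the opposite strand. Cox7a2l (ENSMUSG00000024248, chr17:83501918-83517330, minus strand), which joins complex III to complex IV in supercomplexes, had 93.1, 96.4 and 102 CPM in the eGFPhi libraries, against 59.9, 54.4 and 62.5 CPM in the eGFPlo libraries. All 3 eGFPhi libraries were higher (1.65-fold; log2 fold change 0.72, SE 0.06, adjusted p = 3.63e-05), while its relative Cox7a2, a subunit of complex IV alone, was lower. Per kilobase Cox7a2l made up 80.3 to 82.9% of subunit 7a transcripts in eGFPhi and 61.4 to 64.2% in eGFPlo. The median log2 fold change of the assembly factors was -0.48 over all 9 but 0.25 over the 7 without exon overlap.

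Many of these genes have processed pseudogenes whose sequence could take up their reads, and how shared reads were counted is not stated. Of the protein-coding genes, 19 have a pseudogene copy in the table that shares at least 50 words of 50 bases with them. In 9 of the 19 the copies held more reads than the gene itself in eGFPlo. Atp5g2 was the extreme, at 0.818 CPM in eGFPhi and 1.92 CPM in eGFPlo for the gene but 42.9 CPM in eGFPhi and 40.3 CPM in eGFPlo for its copies. Its log2 ratio of mean CPM was -1.23 alone and 0.05 with the copies added, so its fall is uncertain. For Atp5l the ratio was 0.00 alone and -0.33 with copies, and for Atp5md -0.55 and -0.04. Of the 19 genes 17 kept their sign. Atp5h, with a single copy, stood at -0.85 alone and -0.44 with it, Ndufs5 at -0.95 and -0.58, and Atp5g1 at -0.90 and -1.01. Apart from copies, the exons of 32 of the 99 genes overlap those of another gene, 5 of them on the same strand and 29 on the opposite strand. Of the copies that the naming rule itself takes in, Cox6c2 had 16.2, 14.5 and 15.4 CPM in the eGFPhi libraries, against 25.7, 26.7 and 26.1 CPM in the eGFPlo libraries and was lower (log2 fold change -0.77, SE 0.07, adjusted p = 5.53e-05). Cox7c-ps1 was lower too (-0.40) but not without eGFPlo replicate 3 (adjusted p = 0.0613) or with DESeq2 (adjusted p = 0.119). Uqcrh-ps1 reached the limit of the filter in every eGFPhi library but not in every eGFPlo library, and Ndufa11b and Uqcrh-ps2 were not tested.

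**Figure D5:**
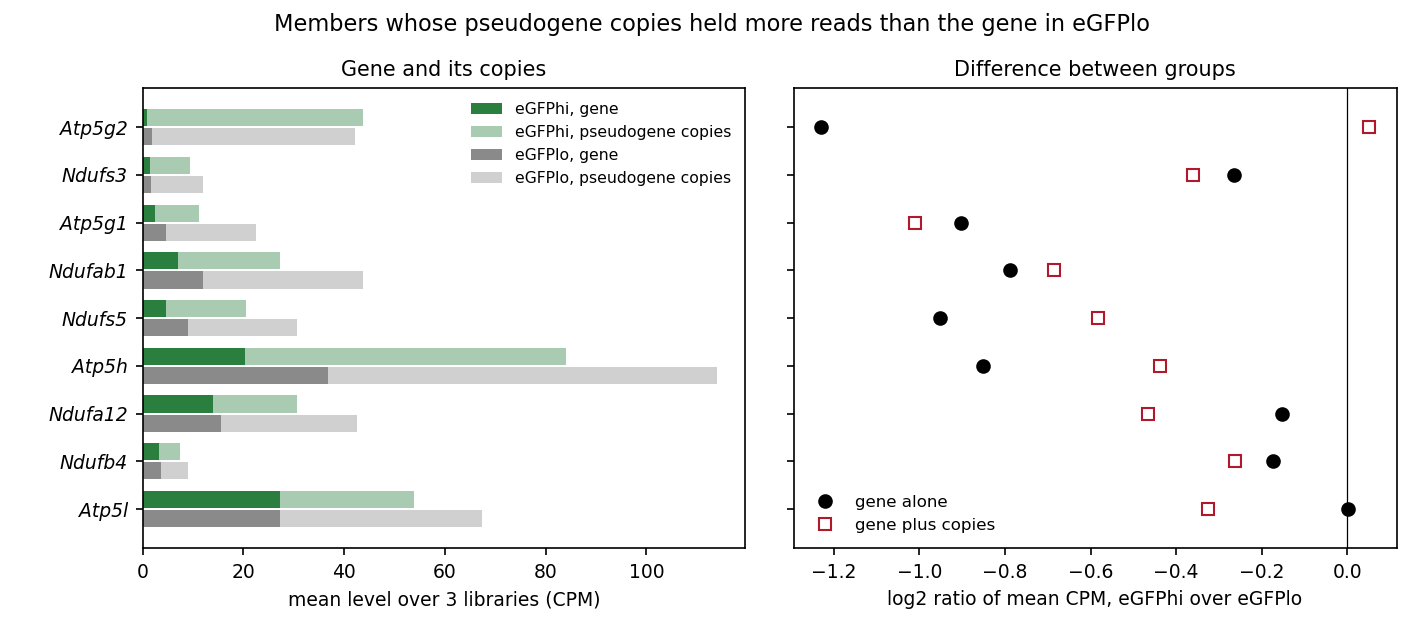
Left, mean level over 3 libraries (CPM, x axis) of the 9 genes (y axis) whose pseudogene copies held more reads than the gene in eGFPlo, as bars for gene and copies stacked from 0, eGFPhi above eGFPlo. Right, the log2 ratio of mean CPM (eGFPhi over eGFPlo, x axis) of the gene alone and with its copies, which for Atp5g2 lies at -1.23 and 0.05.

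Related gene lists outside the naming rule were counted in the same way, with no test between lists and against the same background of 31.7% of all tested genes lower and 32.3% higher. Of 45 further assembly factors tested, 17 were lower, close to that share, and 8 higher (median log2 fold change -0.13). Lrpprc, which stabilises mitochondrial messenger RNA, averaged 80.2 ± 1.36 CPM in eGFPhi and 104 ± 2.65 CPM in eGFPlo (SD, n = 3 each; log2 fold change -0.37, SE 0.03, adjusted p = 6.75e-05). Sdhaf3, a complex II assembly factor, averaged 4.38 ± 0.308 CPM in eGFPhi and 9.55 ± 1.13 CPM in eGFPlo (log2 fold change -1.14, SE 0.13, adjusted p = 1.76e-04). Among the 16 genes of ubiquinone synthesis, the cytochromes c and c1 and the inhibitor of the synthase, 4 were lower and 3 higher (median -0.13), both below the background shares. Coq8a, an atypical kinase needed for ubiquinone synthesis, averaged 64.02 ± 2.41 CPM in eGFPhi and 23.1 ± 1.55 CPM in eGFPlo (log2 fold change 1.47, SE 0.06, adjusted p = 1.23e-06). Atpif1, the inhibitor of complex V, averaged 164 ± 0.886 CPM in eGFPhi and 211 ± 2.61 CPM in eGFPlo (log2 fold change -0.36, SE 0.02, adjusted p = 1.11e-05).

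The 13 subunits encoded in mitochondrial DNA were called lower in 6 cases and higher in 3, with a median log2 fold change of -0.04. Their summed level was 17799 to 17977 CPM in eGFPhi and 18206 to 18790 CPM in eGFPlo, lower in every eGFPhi library. mt-Nd1 averaged 1078 ± 5.42 CPM in eGFPhi and 1259.5 ± 31.8 CPM in eGFPlo (log2 fold change -0.22, SE 0.02, adjusted p = 5.57e-05), and mt-Nd6, the subunit gene on the other strand of the mitochondrial genome, averaged 256 ± 4.26 CPM in eGFPhi and 213 ± 1.95 CPM in eGFPlo (log2 fold change 0.27, SE 0.02, adjusted p = 5.44e-05). A difference between mitochondrial and nuclear subunits was not tested. Of the 13 enzymes of the tricarboxylic acid cycle, which supplies the electrons, 12 were lower and 0 higher (median -0.38). Mdh2, malate dehydrogenase, averaged 108 ± 2.15 CPM in eGFPhi and 153 ± 1.41 CPM in eGFPlo (log2 fold change -0.51, SE 0.03, adjusted p = 5.49e-06), and Cs, citrate synthase, averaged 88.5 ± 4.81 CPM in eGFPhi and 126 ± 2.54 CPM in eGFPlo (log2 fold change -0.50, SE 0.05, adjusted p = 5.32e-05).

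Among 19 regulators of mitochondrial biogenesis 9 were lower and 3 higher (median -0.16). Ppargc1a, the coactivator PGC-1alpha, averaged 7.23 ± 0.0928 CPM in eGFPhi and 1.81 ± 0.358 CPM in eGFPlo (log2 fold change 2.01, SE 0.15, adjusted p = 2.38e-05), so it was higher in libraries in which most respiratory genes were lower. Gabpa, whose letters were searched in the promoters, averaged 104 ± 0.605 CPM in eGFPhi and 141 ± 5.06 CPM in eGFPlo (log2 fold change -0.44, SE 0.03, adjusted p = 2.60e-05). Nrf1 and Yy1, chosen after their values were seen because their letters were searched too, averaged 38.2 ± 0.925 CPM in eGFPhi and 46.98 ± 1.298 CPM in eGFPlo and 161 ± 1.82 CPM in eGFPhi and 193 ± 0.606 CPM in eGFPlo (log2 fold changes -0.30 and -0.26, both called lower). Sp1 did not pass the threshold (-0.17).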

How the data were processed

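The deposited table gives read counts per gene and library and FPKM values that the authors computed, per the file headers. The tools named in the submitters' processing notes are HISAT2, StringTie, CASAVA 1.8 and edgeR, with no role for any of them, and the listed builds are GRCm38 and hg38. How reads were counted, with which strand setting and what was done with reads that fit several genes, is not stated. All 99 genes have the coordinates of GENCODE M21, so positions are on GRCm38.

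Tests on the counts used edgeR 4.0.16 in R 4.3.3 (filterByExpr defaults of 10 for the minimum and 15 for the total count, TMM factors, quasi-likelihood F tests, group as the only term, Benjamini-Hochberg adjustment over all 18081 tested genes, threshold 0.05). Floors cover counting error only. Pseudogene copies were matched through GENCODE transcripts and promoters through RefSeq. The steps were tested on simulated data of 17586 genes, few of them given a change. True log2 changes of -1 and 1 were called in 65.3% and 78% of the changed genes. Those of -0.5 and 0.5 were called in 31.25% and 16.7%, so small changes were often missed. In these data 64.0% of tested genes were called, so the simulated shares may not carry over.

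The members and lists were chosen with earlier results of these data known. Named by rule were the genes with the smallest p in each complex (4 each, and 4 per class in complexes I and V), genes called against their complex, isoform pairs, complex II, the largest fold of each complex, 2 genes of each related list, and Trim47; any other gene named was chosen after its values were seen. The values of 1 complex I gene that the rule takes in are not reported here, though it is part of the counts and sums. Of the cell marker lists only counts, sums and a few genes are given.

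The labels give no pairing or batch, so the groups were compared unpaired. Libraries with the same replicate number did not deviate together (r = -0.0133, 0.000555 and -0.0108 across genes), which does not exclude a pairing. Tried as alternatives were DESeq2 1.42.0, limma-voom (limma 3.58.1), upper-quartile or RLE factors, a filter of 5 CPM in 3 libraries or none, an assumed coefficient of variation of 0.2, a minimum fold of 1.2, limma on log2 of FPKM plus 1, the replicate block, leaving out each library, and genes without exon overlap; genes with few shared 50-base words, genes that pass the filter in both groups and c ring shares with pseudogene copies were added after seeing the data.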

Additional observations from a re-analysis of the deposited data

How the results depend on the processing

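Of the 65 genes called lower, 59 to 65 were lower and of the 6 called higher 5 or 6 were higher under each alternative except an assumed coefficient of variation of 0.2 and a minimum fold of 1.2, and 0 changed direction. With the coefficient of 0.2, 2982 of all genes and 28 oxidative phosphorylation genes were lower and 3637 of all genes were higher, and with the minimum fold 46 of the 65 and 4 of the 6 stayed called. The samples share only a number, and with the replicate block 62 genes were lower and 6 higher. The medians and summed log2 ratios kept their sign under every alternative run except that of the assembly factors without exon overlap. Leaving out one library at a time gave median log2 fold changes of -0.42 to -0.38 over all genes of the set, -0.25 to -0.19 in complex III, -0.49 to -0.43 in complex IV and -0.58 to -0.52 in complex V. Upper-quartile factors gave medians of -0.37 for the set, -0.25 in complex II and -0.53 in complex V, and summed log2 ratios of -0.34 for the set, -0.33 in complex I, -0.27 in complex II and -0.42 in complex V. The stricter filter gave a median of -0.47 in complex V. Log2 FPKM gave -0.33 for the set, -0.34 in complex I, -0.36 in complex V and -0.36 for assembly factors. Without genes of overlapping exons, which leaves 63 tested genes, 43 were lower, with medians of -0.36 in complex I, -0.28 in complex III, -0.59 in complex V and 0.25 for assembly factors. The set without Cox4i2, Atp5g2 and Uqcrh-ps1, an alternative added after seeing the data, gave -0.52 in complex V. Genes with few shared words gave -0.41 for the set, -0.28 in complex III and -0.30 in complex V. The cause of these differences was not tested beyond the smaller number of genes. Depth limits Cox4i2, Ndufs3, Atp5g1, Atp5g2 and the isoforms with under 20 counts in all.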
